A study of Homo sapiens with 28 samples.

Results

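The 9 genes described here coat, fill and empty cytoplasmic lipid droplets: PLIN2, PLIN3, HILPDA, PNPLA2, G0S2, ABHD5, LPIN1, FABP5 and CPT1A. They were taken by symbol from the expression tables of PC3 and LNCaP prostate cancer cells, each of which lists 19662 gene symbols, and all 9 were found in both tables. RNA-Seq covered 16 libraries in 8 groups of 2. PC3, a prostate cancer line without androgen receptor signaling, received a control siRNA (siCtrl) or siRNAs against ONECUT2 (siOC2), a homeobox transcription factor, and was kept in normoxia or in hypoxia (0.2% oxygen). LNCaP, an androgen-responsive adenocarcinoma line, carried an empty vector (EV) or Flag-tagged ONECUT2 (OC2) in the same 2 conditions. Within a siOC2 group replicate 1 received siRNA1 and replicate 2 received siRNA2, so its replicates are different reagents. The ONECUT2 construct was built with a CMV promoter, and the duration of hypoxia and whether replicates were separate cultures were not given in the sources used here. P-values therefore measure the spread between these libraries, which may be technical and in the siOC2 groups includes the difference between the siRNAs. The 4 groups of a cell line share an estimate of the spread, so that difference also enters the P-values within siCtrl PC3.

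Lipid droplets are stores of neutral lipid, mainly triglyceride and sterol ester, wrapped in a single phospholipid layer with coat proteins. Fatty acids enter the store through a synthesis pathway that includes the lipins, and leave it by stepwise hydrolysis that begins with PNPLA2, the adipose triglyceride lipase. ABHD5 activates this lipase, and G0S2 and HILPDA inhibit it. Released fatty acids are carried in the cytosol by binding proteins such as FABP5, and enter mitochondria for oxidation through CPT1A. HILPDA is a known target of hypoxia-inducible factors (HIF), and droplets are known to accumulate in many cell lines kept at low oxygen.

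Expression was given as RPKM, reads scaled to gene length and to the mapped reads of the library, so that levels can be set side by side between genes of a table. A gene was tested where at least 2 of the 8 libraries of a cell line reached 1 RPKM. A gene was called changed when its fold change, on the scale of RPKM plus 0.1, was over 2 and its unadjusted P in limma was under 0.05. Benjamini-Hochberg adjusted p-values over all genes tested, 12214 in PC3 and 12283 in LNCaP, stand beside the calls. ONECUT2 itself lay at 1.77 and 1.16 RPKM in the normoxic siCtrl libraries of PC3. In the hypoxic siCtrl libraries it lay at 0.648 and 0.55 RPKM, under the limit of 1. In the siOC2 libraries of PC3 it lay at 0.276 and 0.204 RPKM in normoxia and at 0.125 and 0.214 RPKM in hypoxia. In LNCaP it lay at 2.89 to 11.5 RPKM in the EV libraries, and the table held no value for it in the OC2 libraries, so overexpression was not checked here. KLK3 was at 0 in the PC3 libraries, and all 6 luminal markers were over 1 RPKM in every LNCaP group. Of 7 genes known to respond to hypoxia, 6 were called higher in siCtrl PC3, beside 3.86% of all genes called. By adjusted p under 0.05 it was 2 of the 7, CA9 and ADM, beside 0.270%. VEGFA, not called, was at 138 and 170 RPKM in normoxic and 238 and 205 RPKM in hypoxic siCtrl PC3. All 6 tested in EV LNCaP were called higher, beside 7.95% of all genes, and all 6 passed by adjusted p, beside 32.3%. Estimated from the low values, the relative depth of the PC3 libraries ranged from 0.347 to 1.15, and was lowest in the hypoxic siRNA1 library and next lowest in a hypoxic and a normoxic siCtrl library (0.382 and 0.418). That of the LNCaP libraries ranged from 0.548 to 1.

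All 9 genes were tested in PC3, and 6 of them in LNCaP. The 3 below the limit in LNCaP were PLIN2, at 0.0985 to 0.486 RPKM, FABP5, at 0.0591 to 0.466 RPKM, and G0S2, at 0 to 0.0913 RPKM. In PC3 the same genes lay at 8.10 to 36.8, at 48.9 to 115 and at 2.64 to 8.17 RPKM, so that the libraries of the 2 lines did not overlap for any of the 3. The tables were normalized separately, and their RPKM summed to 401332 to 513810 per library in PC3 and to 813232 to 961906 in LNCaP, so these levels are a description with no test. PLIN2 is the main droplet coat protein outside adipose tissue. FABP5 has near-identical processed pseudogenes, and its level is uncertain where reads could be split between copies. With bulk RNA, fewer cells with a transcript and less of it per cell cannot be told apart.

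The order of the members differed between the lines and between normoxia and hypoxia. In normoxic siCtrl PC3 the mean level was highest for FABP5 (99.2 ± 6.14 RPKM, SD, n = 2 here and below), followed by PLIN3 (24.2 ± 0.518), LPIN1 (20.7 ± 1.34), ABHD5 (16.5 ± 6.02), PLIN2 (8.80 ± 0.985), HILPDA (8.15 ± 1.87), CPT1A (8.03 ± 1.20), G0S2 (6.91 ± 1.78) and PNPLA2 (6.06 ± 1.01). The libraries of LPIN1 and ABHD5 overlapped, and so did those of each pair of neighbours from PLIN2 to PNPLA2. In hypoxic siCtrl PC3, HILPDA (94.6 RPKM) was beside FABP5 (92.8 RPKM) at the top, with overlapping libraries, and CPT1A (4.99 RPKM) and G0S2 (4.97 RPKM) were lowest.

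In normoxic EV LNCaP the mean level was highest for CPT1A (49.8 ± 5.30 RPKM), followed by LPIN1 (28.1 ± 1.60), HILPDA (22.0 ± 0.581), PNPLA2 (16.1 ± 4.0), ABHD5 (14.3 ± 0.347) and PLIN3 (13.2 ± 2.67). The libraries of neighbours overlapped from PNPLA2 to PLIN3. In hypoxic EV LNCaP, HILPDA (50.5 RPKM) and LPIN1 (39.1 RPKM) lay above CPT1A (24.8 RPKM), without overlap. In OC2 LNCaP, CPT1A was the highest member in normoxia (54.1 RPKM), and lay below HILPDA in hypoxia (39.2 against 60.9 RPKM).

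On GRCh37, the build of the tables, HILPDA occupies chromosome 7 from 128095903 to 128098472, PLIN2 chromosome 9 from 19108373 to 19149288 on the minus strand, CPT1A chromosome 11 from 68522088 to 68611878 on the minus strand, and PNPLA2 the same chromosome from 818914 to 825573. G0S2 lies on chromosome 1 from 209848757 to 209849735, LPIN1 on chromosome 2 from 11817721 to 11967535, ABHD5 on chromosome 3 from 43731600 to 43775863, and PLIN3 on chromosome 19 from 4838353 to 4867706 on the minus strand. RefSeq promoter windows, 250 bases before to 50 bases after a transcript start on GRCh38.p14, were at hand for 7 of the 9. They were searched on both strands for the HIF core letters ACGTG and GCGTG and for the ONECUT letters ATCGAT and ATCAAT. Of 35116 such windows of all genes, 48.4% held a HIF core and 6.96% an ONECUT match. PLIN2 had 5 HIF core matches, G0S2 4, PLIN3 3, CPT1A 1, and PNPLA2 0. Of the 3 windows of ABHD5 and the 3 of LPIN1, 2 each had 1 match. No window of a member held the ONECUT letters.

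The sequences of PLIN2 and G0S2 are shown because these genes had the most matches and were at levels over 2 RPKM in PC3 and under 0.5 RPKM in LNCaP. Each is the 250 bases before the start, 5′ to 3′ on the strand of the gene, chr9:19127493-19127742 (minus) and chr1:209675162-209675411 (plus) on GRCh38.p14, with the HIF core letters in capitals. One further PLIN2 match spans the start and is not in the stretch.
PLIN2: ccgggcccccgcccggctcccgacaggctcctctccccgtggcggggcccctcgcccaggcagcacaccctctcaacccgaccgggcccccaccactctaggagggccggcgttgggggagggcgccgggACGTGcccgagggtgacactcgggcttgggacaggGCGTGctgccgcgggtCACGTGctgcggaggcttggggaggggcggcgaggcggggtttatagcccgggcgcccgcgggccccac
G0S2: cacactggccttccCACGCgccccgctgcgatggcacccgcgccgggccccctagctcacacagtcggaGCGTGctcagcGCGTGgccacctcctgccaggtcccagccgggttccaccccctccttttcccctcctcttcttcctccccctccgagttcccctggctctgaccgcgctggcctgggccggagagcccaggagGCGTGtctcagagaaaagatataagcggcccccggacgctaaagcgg

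The PLIN2 stretch holds 4 matches, of which 2 overlap in a palindrome, and the G0S2 stretch also holds 4. A match is a description of the letters and not a measured binding site.

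HILPDA had the largest hypoxia response of the members tested, 9 in PC3 and 6 in LNCaP, in each of the 4 comparisons of hypoxia with normoxia. In siCtrl PC3 it was at 6.83 and 9.47 RPKM in normoxia and at 105 and 84.1 RPKM in hypoxia. Both hypoxic libraries lay far above both normoxic ones, and HILPDA rose 11.6-fold (log2 fold change 3.53, SE 0.42, adjusted p = 0.0152). It was the 1 member of 9 called in this comparison, beside 3.86% of all genes tested, and also the 1 member with an adjusted p under 0.05, beside 0.270% of all genes.

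In siOC2 PC3, HILPDA was at 14.2 RPKM (siRNA1) and 8.57 RPKM (siRNA2) in normoxia, and at 84.4 and 40.4 RPKM in hypoxia. The groups did not overlap, and HILPDA rose 5.25-fold (log2 fold change 2.39, SE 0.42), with an adjusted p of 0.263. It was again the 1 member called, beside 3.46% of all genes. HILPDA rose with each siRNA, from 14.2 to 84.4 RPKM with siRNA1 and from 8.57 to 40.4 RPKM with siRNA2. It was also called with the identity of the siRNA as a further term in the fit, added after the data were seen. The hypoxic siRNA2 library lay below the siRNA1 library of the same condition. Without the siRNA2 library the log2 fold change was 2.92, which sets siRNA1 in hypoxia against both siRNAs in normoxia.

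In EV LNCaP, HILPDA went from 22.4 and 21.6 RPKM in normoxia to 53.4 and 47.6 RPKM in hypoxia, a 2.28-fold rise (log2 fold change 1.19, SE 0.11, adjusted p = 0.0002). In OC2 LNCaP it went from 18.2 and 20.8 RPKM to 62.7 and 59.1 RPKM, a 3.12-fold rise (log2 fold change 1.64, SE 0.11, adjusted p = 0.0001). Normoxic and hypoxic libraries did not overlap in either arm. HILPDA was the 1 of 6 members called in each arm, beside 7.95% of all genes in the EV libraries and 6.84% in the OC2 libraries.

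The hypoxia response of HILPDA in the controls was larger in PC3 than in LNCaP. These controls also differ in reagent, a control siRNA in PC3 and an empty vector in LNCaP. A difference of line cannot be told apart from one of reagent. The difference of the log2 fold changes, in which the separate scaling of the tables cancels, was 2.34 (SE 0.46, 95% interval 1.34 to 3.34, adjusted p = 0.0365) in a fit to both tables with 10948 genes. HILPDA was the 1 of 6 members called, beside 6.43% of all genes, and the 1 with an adjusted p under 0.05, beside 0.859%. The normoxic level was lower in PC3 (8.15 ± 1.87 RPKM, SD, n = 2) than in LNCaP (22.0 ± 0.581 RPKM, SD, n = 2), and the hypoxic level was higher (94.6 ± 14.8 against 50.5 ± 4.12 RPKM, SD, n = 2 each).

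The genes whose pattern was most like that of HILPDA were MLLT3, PFKFB4, FAM162A, BNIP3 and PLOD2. Their Pearson correlations with HILPDA, over the 8 libraries of a table and averaged over the 2 tables, were 0.975 to 0.982 among 6926 genes. PFKFB4 is a regulator of glycolysis, BNIP3 a mitophagy receptor and PLOD2 a collagen lysyl hydroxylase. The libraries of a table share the contrast of hypoxia with normoxia, so the correlations are a description. PLIN2 was not tested in LNCaP, and no such genes were sought for it.

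**Figure D1:**
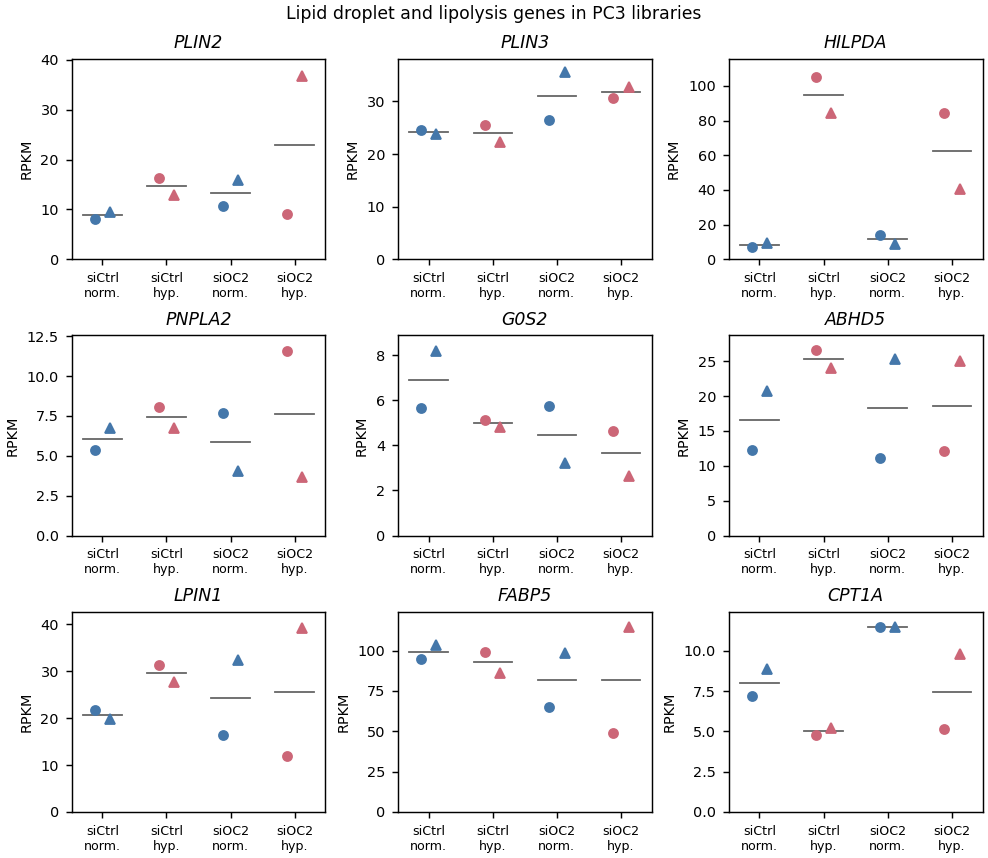
RPKM of the 9 genes in the 8 PC3 libraries, by siRNA and oxygen, with normoxia (norm.) in blue and hypoxia (hyp.) in red. Circles are replicate 1 (siRNA1 in the siOC2 groups), triangles replicate 2 (siRNA2), and lines the mean of 2 libraries; HILPDA reached 105 RPKM in hypoxia from 6.83 in normoxia, and the siOC2 libraries of PLIN2, ABHD5 and LPIN1 lie far apart by siRNA.

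CPT1A, which forms acylcarnitines at the outer mitochondrial membrane and is the controlled step of fatty acid entry, moved the other way. In EV LNCaP it was at 53.5 and 46.0 RPKM in normoxia and at 24.2 and 25.4 RPKM in hypoxia. The groups did not overlap, and CPT1A fell by 1.00 on the log2 scale (SE 0.11, adjusted p = 0.000501). The fold was 1.998, just inside the limit of 2, so it was not called by the fold rule. It was called with upper-quartile scaling (log2 fold change -1.03), and also without the normoxic EV library 2 (-1.11) or the hypoxic EV library 2 (-1.03).

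In OC2 LNCaP, CPT1A went from 52.1 and 56.1 RPKM to 38.0 and 40.5 RPKM, and fell by 0.46 on the log2 scale (SE 0.11, adjusted p = 0.0165). By adjusted p, 3 of 6 members changed with hypoxia in the EV libraries (HILPDA, LPIN1 and CPT1A), beside 32.3% of all genes. In the OC2 libraries it was 2 of 6 (HILPDA and CPT1A), beside 26.9%. In siCtrl PC3, CPT1A was at 7.18 and 8.88 RPKM in normoxia and at 4.76 and 5.23 RPKM in hypoxia, without overlap. The log2 fold change of -0.67 (SE 0.35, adjusted p = 0.759) did not pass. In siOC2 PC3 it was at 11.5 and 11.5 RPKM and then at 5.12 (siRNA1) and 9.79 RPKM (siRNA2), with a log2 fold change of -0.69 (SE 0.35, adjusted p = 0.727). The hypoxia response of CPT1A did not differ detectably between the control cells of the lines (difference 0.33, 95% interval -0.45 to 1.11).

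The coat genes were not called with hypoxia. PLIN2 was at 8.10 and 9.49 RPKM in normoxic siCtrl PC3 and at 16.4 and 12.9 RPKM in hypoxia, with a log2 fold change of 0.72 (95% interval -0.61 to 2.05, adjusted p = 0.861). These groups did not overlap. In siOC2 PC3 it was at 10.6 (siRNA1) and 15.96 RPKM (siRNA2) in normoxia and at 8.98 and 36.8 RPKM in hypoxia. The siRNA2 library in hypoxia was the highest of all 8, and the siRNA1 library in hypoxia lay below both normoxic ones. Without that siRNA1 library, the log2 fold change of PLIN2 was 1.49. This sets siRNA2 in hypoxia against both siRNAs in normoxia, so the difference between the siRNAs enters it. PLIN3, a coat protein that moves from cytosol to nascent droplets, stayed between 22.3 and 35.6 RPKM in PC3 and between 10.4 and 15.1 RPKM in LNCaP. Its log2 fold changes with hypoxia ran from -0.40 in OC2 LNCaP (adjusted p = 0.0854) to 0.04 in siOC2 PC3.

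The lipase and its regulators other than HILPDA showed no called change with hypoxia either. PNPLA2 was at 3.70 to 11.6 RPKM in PC3 and 13.2 to 18.9 RPKM in LNCaP, and its log2 fold changes with hypoxia ran from -0.17 (EV LNCaP) to 0.30 (siCtrl PC3). ABHD5 was at 12.3 and 20.8 RPKM in normoxic siCtrl PC3 and at 26.6 and 24.1 RPKM in hypoxia (log2 fold change 0.66, 95% interval -0.46 to 1.78). In LNCaP its log2 fold changes were -0.05 in both arms. G0S2 was at 5.65 and 8.17 RPKM in normoxic siCtrl PC3 and at 5.14 and 4.80 RPKM in hypoxia (log2 fold change -0.44, 95% interval -1.38 to 0.49). For PNPLA2 (-0.93 to 1.52), as for ABHD5 and G0S2, the 95% interval in siCtrl PC3 included a 2-fold change. Without the hypoxic siRNA2 library, the log2 fold changes in siOC2 PC3 were 1.04 for PNPLA2 and -1.15 for CPT1A. These set siRNA1 in hypoxia against both siRNAs in normoxia, so the difference between the siRNAs enters them. PNPLA2 with siRNA1 was at 7.71 RPKM in normoxia and 11.6 RPKM in hypoxia, and with siRNA2 at 4.04 RPKM in normoxia.

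LPIN1, a phosphatidate phosphatase that makes the diacylglycerol used for triglyceride, rose modestly in EV LNCaP. It was at 29.3 and 27.0 RPKM in normoxia and at 40.4 and 37.7 RPKM in hypoxia, a 1.39-fold rise (log2 fold change 0.47, SE 0.11, adjusted p = 0.0142). In OC2 LNCaP it was at 23.8 and 28.0 RPKM and then at 32.2 and 32.7 RPKM (log2 fold change 0.33, adjusted p = 0.0603), again with no overlap. In siCtrl PC3 it was at 21.7 and 19.8 RPKM and then at 31.3 and 27.8 RPKM (log2 fold change 0.51, SE 0.54, adjusted p = 0.918). These groups did not overlap, and the SE includes the spread between the siRNAs in the siOC2 groups. FABP5 (chromosome 8 from 82192771 to 82197012 on GRCh37), at 94.9 and 104 RPKM in normoxic and 99.4 and 86.1 RPKM in hypoxic siCtrl PC3, had a log2 fold change of -0.10 (95% interval -1.02 to 0.82).

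**Figure D2:**
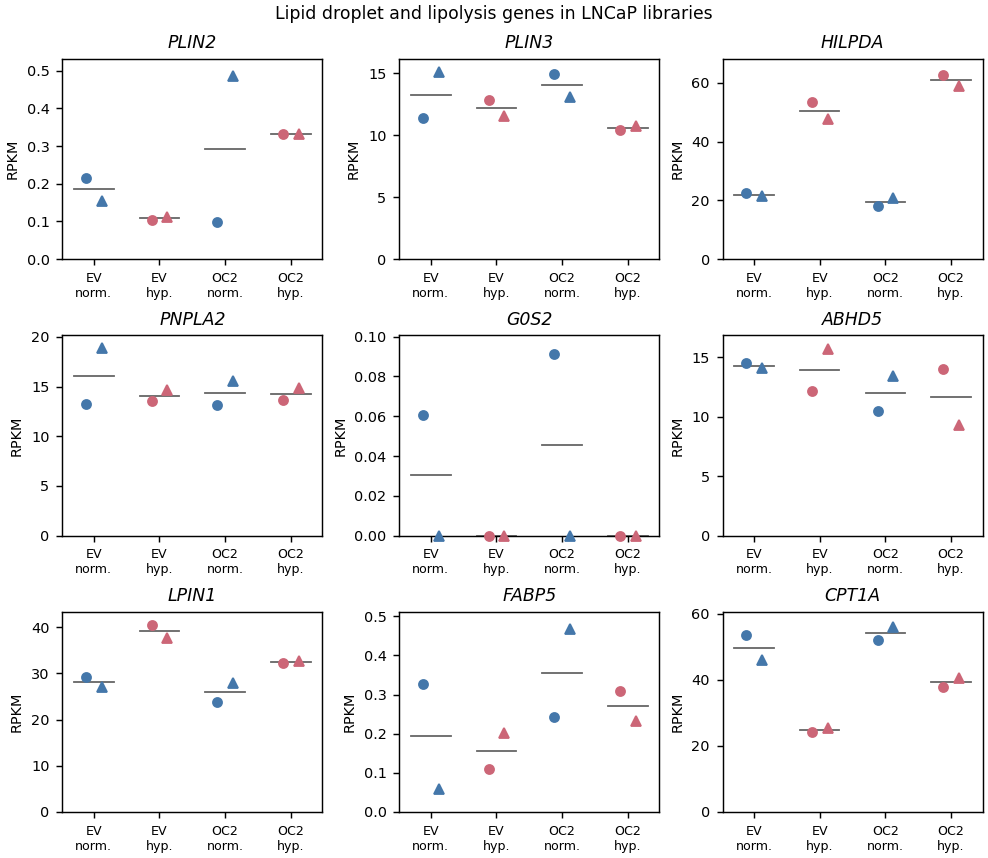
RPKM of the 9 genes in the 8 LNCaP libraries, drawn as in the plot of the PC3 libraries, each panel with its own scale from 0. HILPDA is higher and CPT1A lower in the hypoxic libraries of both arms, and PLIN2, G0S2 and FABP5 lie under 0.5 RPKM.

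Over the members tested, the median log2 fold change with hypoxia was 0.30 in siCtrl PC3 beside -0.07 over all genes, and 0.04 beside -0.22 in siOC2 PC3. In LNCaP it was -0.08 beside 0.02 in the EV libraries and -0.03 beside 0.09 in the OC2 libraries. The comparisons within a cell line use different libraries for the 2 arms, and share one estimate of the spread. Of the fibroblast markers, COL1A1 moved with hypoxia in LNCaP. The summed level of the 5 markers was 7.92 to 7.98 RPKM in normoxia and 16.2 to 17.9 in hypoxia in EV libraries, and 11.2 to 11.3 and then 25.3 to 26.0 in OC2 libraries. COL1A2 and DCN, defining markers, were at most 0.0489 RPKM there, and in PC3 the sum of the list was 2.43 to 8.14 RPKM. Of the leukocyte and macrophage markers CD68 was at 21.1 to 57.2 RPKM in the 2 lines, with PTPRC and TYROBP at most 0.067 RPKM. Whether these levels bear on the members was not tested.

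**Figure D3:**
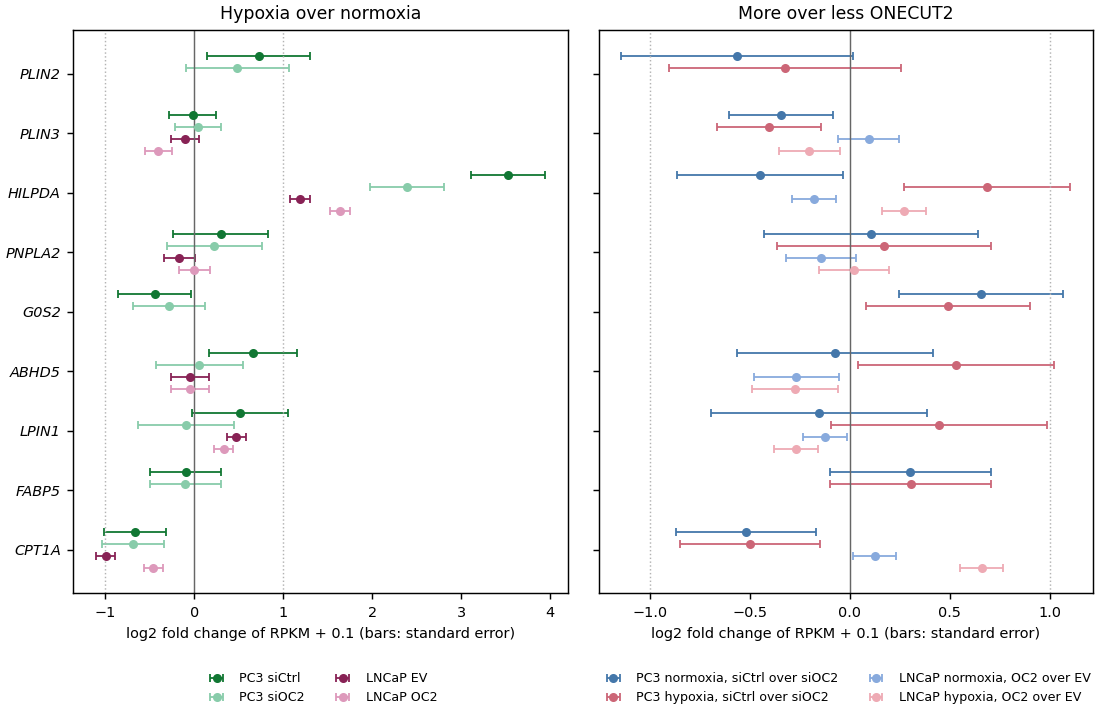
Log2 fold changes of RPKM plus 0.1 with their standard errors, for hypoxia over normoxia on the left and for the arm with more over the arm with less ONECUT2 on the right; dotted lines mark a fold of 2. HILPDA is past the line in all 4 hypoxia comparisons, and none of the members tested is past it in the ONECUT2 comparisons.

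ONECUT2 silencing gave no called member in PC3. In normoxia 0 of 9 members were called between siCtrl and siOC2 libraries, beside 5.21% of all genes, and in hypoxia 0 of 9, beside 7.50%. None had an unadjusted P under 0.05 in limma in either comparison. In normoxia the log2 fold changes of siCtrl over siOC2 ran from -0.56 (PLIN2) to 0.65 (G0S2), and in hypoxia from -0.50 (CPT1A) to 0.69 (HILPDA). CPT1A was at 7.18 and 8.88 RPKM in normoxic siCtrl libraries and at 11.5 RPKM in both siOC2 libraries, with no overlap and an adjusted p of 0.711. PLIN3 was lower in the siCtrl libraries without overlap in both conditions (log2 fold changes -0.34 and -0.41, adjusted p = 0.752 and 0.585). PLIN2 in normoxia and G0S2 in hypoxia did not overlap either. With 2 libraries against 2, a lack of overlap alone gives 0.33 in an exact two-sided rank test.

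HILPDA in hypoxia was at 105 and 84.1 RPKM in siCtrl libraries and at 84.4 (siRNA1) and 40.4 RPKM (siRNA2) in siOC2 libraries, a log2 fold change of 0.69 (95% interval -0.26 to 1.64). These groups overlapped. The test of whether its hypoxia response differed between siCtrl and siOC2 gave 1.14 (SE 0.59, adjusted p = 1.00), and 0 of 9 members were called in that test, beside 0.942% of all genes. When the identity of the siRNA entered the fit as a further term, added after the data were seen, HILPDA was called in it with an adjusted p of 0.860. Leaving out a hypoxic siOC2 library changed the calls in hypoxia. Without the siRNA1 library, HILPDA (1.22) and PLIN2 (-1.34) were called for siCtrl over siOC2, and without the siRNA2 library LPIN1 was (1.30).

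The 2 siRNAs were also compared with each other, a comparison added after the data were seen. Over normoxic and hypoxic siOC2 libraries together, 4 of 9 members were called between siRNA2 and siRNA1, beside 19.7% of all genes. LPIN1 was at 16.4 and 11.9 RPKM with siRNA1 and at 32.3 and 39.3 RPKM with siRNA2 (normoxia and hypoxia), a 2.53-fold difference (log2 fold change 1.34, SE 0.25, adjusted p = 0.00165). PLIN2 was higher with siRNA2 in both conditions (log2 fold change 1.31, SE 0.31, adjusted p = 0.00737). ABHD5 was at 11.2 and 12.2 RPKM with siRNA1 and at 25.3 and 25.1 RPKM with siRNA2 (log2 fold change 1.10, SE 0.27, adjusted p = 0.00913).

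PNPLA2 went the other way, from 7.71 and 11.6 RPKM with siRNA1 to 4.04 and 3.70 RPKM with siRNA2 (log2 fold change -1.27, SE 0.29, adjusted p = 0.00541). FABP5 was higher (0.91, adjusted p = 0.0115) and HILPDA lower (-0.89, adjusted p = 0.0199) with siRNA2 without passing the fold limit. By adjusted p, 6 of 9 members differed, beside 24.4% of all genes. The median over all genes was 0.26 in this comparison and 0.12 after upper-quartile scaling, and after that scaling ABHD5 was no longer called (0.96) and HILPDA was (-1.04). Leaving out either hypoxic siOC2 library left ABHD5 as the 1 member called, with PLIN2 at 0.59, LPIN1 at 0.97 and PNPLA2 at -0.91. ONECUT2 was at 0.276 and 0.125 RPKM with siRNA1 and at 0.204 and 0.214 RPKM with siRNA2.

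FABP4, the adipocyte fatty acid binding protein and 1 of 5 adipocyte markers, moved with siRNA2. It was at 9.03 and 5.40 RPKM with siRNA1, at 134 and 168 RPKM with siRNA2 and at 2.09 to 3.80 RPKM in siCtrl libraries. The summed level of the 5 markers ran accordingly from 2.60 to 4.34 RPKM in siCtrl and from 5.43 to 168 RPKM in siOC2 libraries. ADIPOQ and LEP, defining adipocyte markers, were at 0.01 RPKM or less in every PC3 library, PLIN1 was at most 0.599 RPKM and CIDEC at most 0.247 RPKM. The part of FABP4 in the siRNA differences, and that of the lower relative depth of the hypoxic siRNA1 library, was not tested.

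**Figure D4:**
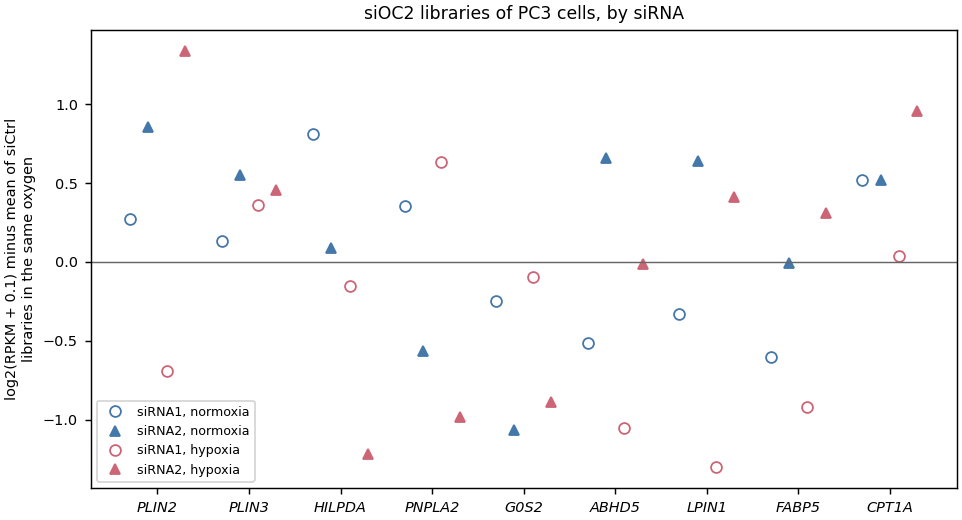
Each siOC2 library of PC3 against the mean of the siCtrl libraries in the same oxygen, in log2(RPKM + 0.1), with siRNA1 as open circles, siRNA2 as triangles, normoxia in blue and hypoxia in red. The triangles lie above the circles of the same color for PLIN2, ABHD5, LPIN1 and FABP5 and below them for HILPDA, PNPLA2 and G0S2.

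Between OC2 and EV LNCaP in normoxia, none of 6 members was called, beside 3.29% of all genes, and none had an unadjusted P under 0.05 in limma. Their log2 fold changes ran from -0.27 (ABHD5) to 0.12 (CPT1A). In hypoxia 0 of 6 were called, beside 4.47%, and by adjusted p 1 of 6 differed, beside 11.5%. That member was CPT1A, at 24.2 and 25.4 RPKM in EV and at 38.0 and 40.5 RPKM in OC2 libraries. It was 1.58-fold higher with ONECUT2 without overlap (log2 fold change 0.66, SE 0.11, adjusted p = 0.00873).

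HILPDA in hypoxia was at 53.4 and 47.6 RPKM in EV and at 62.7 and 59.1 RPKM in OC2 libraries (log2 fold change 0.27, adjusted p = 0.151). LPIN1 in hypoxia was at 40.4 and 37.7 RPKM in EV and at 32.2 and 32.7 RPKM in OC2 libraries (log2 fold change -0.27, adjusted p = 0.159). Neither gene overlapped between the arms, and neither passed the adjusted p. In the test of whether the hypoxia response differed between the arms, 0 of 6 members were called, beside 3.70% of all genes. The differences were 0.54 for CPT1A (95% interval 0.19 to 0.89, adjusted p = 0.157) and 0.45 for HILPDA (95% interval 0.09 to 0.81, adjusted p = 0.215). The other 4 had differences between -0.30 and 0.17. In PC3 the corresponding difference for CPT1A was 0.02 (95% interval -1.11 to 1.15).

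Other genes of the pathway were read in 6 lists, and those named are called genes, without overlap where 2 groups were compared, apart from CPT2 and ETFDH with hypoxia in EV LNCaP. In siCtrl PC3, the fatty acid uptake, binding and activation list had 2 of 14 genes tested that rose with hypoxia and 1 that fell. Of all genes 3.86% were called in this comparison. ANGPTL4, a secreted inhibitor of lipoprotein lipase, went from 3.22 and 1.87 RPKM to 202 and 192 RPKM (log2 fold change 6.27, SE 0.39, adjusted p = 0.000998). VLDLR, a lipoprotein receptor, had a log2 fold change of 2.32 (adjusted p = 0.0432). LPL, the lipoprotein lipase itself, had -1.08 (adjusted p = 0.666).

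The lipolysis list had 1 of 6 genes lower in siCtrl PC3, LIPE, the hormone-sensitive lipase (-1.34, adjusted p = 0.470). Its mean went from 2.83 to 1.06 RPKM. Of 3 PPAR regulators tested 1 was higher, PPARD, a nuclear receptor for fatty acids (1.62, adjusted p = 0.0789). None of 7 other droplet coat and assembly genes, 11 glycerolipid and sterol ester synthesis genes or 19 carnitine shuttle and beta oxidation genes was called. The medians of these 3 lists were -0.29, 0.01 and -0.01, beside -0.07 over all genes.

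In EV LNCaP, where 7.95% of all genes were called with hypoxia, the coat and assembly list had 2 of 8 genes that rose. HSD17B11, a droplet-bound dehydrogenase, had a log2 fold change of 2.05 (adjusted p = 0.00291), and PLIN1, a coat protein best known from adipocytes, went from 0.505 to 1.30 RPKM on average (1.23, adjusted p = 0.0124). LPIN3, a paralog of LPIN1, rose among 10 synthesis genes (1.15, adjusted p = 0.00075), and MGLL, the monoglyceride lipase, among 5 lipolysis genes (1.04, adjusted p = 0.0172). Of 10 uptake genes VLDLR rose (2.02, adjusted p = 7.6e-05), and FABP6 (-1.23) and SLC27A2 (-1.16) fell. By adjusted p, 4 of 8 coat and assembly genes and 2 of 10 synthesis genes changed, all higher, beside 32.3% of all genes. It was 3 of 5 lipolysis genes (2 higher), 5 of 10 uptake genes (3 higher) and 1 of 5 PPAR regulators (lower).

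The carnitine shuttle and beta oxidation list in EV LNCaP had a median of -0.52 with hypoxia, beside 0.02 over all genes. Of its 18 genes tested, 11 fell and 3 rose by adjusted p, beside 32.3% of all genes that passed in either direction (1732 of 12283 fell and 2241 rose). The 2 past the fold limit were both higher, CPT1C (1.34), a neuronal relative of CPT1A, and ACAA2 (1.11), the last enzyme of the cycle. CPT2 (-0.84), which reforms acyl-CoA inside mitochondria, and ETFDH (-0.93), which passes electrons to ubiquinone, were among those that fell, and are named after their values were seen. In OC2 LNCaP the median of the list was -0.30 beside 0.09, and 5 genes fell and 2 rose by adjusted p, beside 26.9% of all genes (1043 fell and 2261 rose). In siCtrl PC3, 0 of its 19 genes passed by limma adjusted p and 0 were called, beside 0.270% and 3.86% of all genes.

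PPARGC1A, a coactivator of mitochondrial genes, was the 1 of 5 PPAR regulators called in EV LNCaP. It fell by 1.83 on the log2 scale (adjusted p = 0.00798), from a mean of 1.41 to 0.320 RPKM, near the limit of 1. In OC2 LNCaP, PLIN1 (2.12, adjusted p = 0.00172) and HSD17B11 (1.57, adjusted p = 0.011) rose with hypoxia among 8 coat and assembly genes, and ACAA2 (1.46) among 18 oxidation genes. Of 10 uptake genes, VLDLR rose (2.01) and SLC27A2, a fatty acid transporter, fell (-1.34). PNPLA3, a paralog of the lipase PNPLA2, was the 1 of 5 lipolysis genes called there (-1.06, adjusted p = 0.086). Its mean went from 1.58 to 0.773 RPKM. None of 10 synthesis genes or 5 PPAR regulators was called, and of all genes 6.84% were. In siOC2 PC3 the uptake list again had 2 of 14 genes higher in hypoxia, ANGPTL4 (3.13, adjusted p = 0.0909) and VLDLR (1.21, adjusted p = 0.719). The lipolysis list had 1 of 6 lower, LIPE (-1.56, adjusted p = 0.719). The other 4 lists held no call, and of all genes 3.46% were called.

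Between siCtrl and siOC2 PC3 in normoxia, 1 of 7 coat and assembly genes, 1 of 6 lipolysis genes and 2 of 14 uptake genes were called. Of all genes 5.21% were called in this comparison. METTL7B, a droplet-associated methyltransferase, was higher in siCtrl libraries (log2 fold change 1.46, adjusted p = 0.511). MGLL was lower, at a mean of 14.0 against 37.7 RPKM (-1.43, adjusted p = 0.167), and so were FABP3 (-1.51, adjusted p = 0.289) and VLDLR (-1.03, adjusted p = 0.399). No synthesis gene, oxidation gene or PPAR regulator was called.

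In hypoxic PC3, ANGPTL4 was at 202 and 192 RPKM in siCtrl libraries against 25.2 and 46.9 RPKM in siOC2 libraries (log2 fold change 2.52, adjusted p = 0.0574). PPARD (1.64, adjusted p = 0.0641), METTL7B (1.97, adjusted p = 0.238), HSD17B11 (1.35, adjusted p = 0.367) and GPAM, an acyltransferase that starts glycerolipid synthesis (1.08, adjusted p = 0.324), were also higher in siCtrl libraries. FABP4 (-3.61, adjusted p = 0.410) and LPL (-1.39, adjusted p = 0.278) were lower, and the siOC2 libraries of FABP4 lay far apart by siRNA. None of the 6 lipolysis genes or 19 oxidation genes was called. The calls were 2 of 7 coat and assembly genes, 3 of 14 uptake genes, 1 of 11 synthesis genes and 1 of 3 PPAR regulators. Of all genes 7.50% were called in this comparison.

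In LNCaP, CPT1C was the 1 gene of these lists called between OC2 and EV libraries in normoxia (1.47, adjusted p = 0.00761). It was 1 of 18 oxidation genes tested, beside 3.29% of all genes called. In hypoxia PLIN1 (1.46, adjusted p = 0.0158), FABP6 (1.68, adjusted p = 0.00136) and PPARGC1A (1.37, adjusted p = 0.0517) were higher with ONECUT2. They were 1 of 8 coat and assembly genes, 1 of 10 uptake genes and 1 of 5 PPAR regulators, beside 4.47% of all genes. PPARGC1A was at means of 0.988 RPKM in OC2 and 0.320 RPKM in EV libraries, under the limit of 1. 

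The hypoxia response of the OC2 libraries minus that of the EV libraries was called for 5 genes of these lists, beside 3.70% of all genes. It was -1.27 for METTL7A, 1 of 8 coat and assembly genes, -1.60 for MGLL and -1.38 for PNPLA3 among 5 lipolysis genes, 1.20 for FABP6 among 10 uptake genes and 2.19 for PPARGC1A among 5 PPAR regulators, with adjusted p from 0.0656 to 0.278. In PC3 the response of siCtrl minus that of siOC2 libraries was called for 4 genes, beside 0.942% of all genes. It was 3.14 for ANGPTL4 and 1.11 for VLDLR among 14 uptake genes, 1.09 for MGLL among 6 lipolysis genes and 1.61 for PPARD among 3 PPAR regulators, each with an adjusted p of 1.00. No synthesis or oxidation gene was called in either line. Between the control cells of the lines, the hypoxia response in PC3 minus that in LNCaP was 1.75 for PPARD (adjusted p = 0.0202) and 2.23 for FABP6 (adjusted p = 0.427). It was -1.75 for CPT1C (adjusted p = 0.165), -1.76 for HSD17B11 (adjusted p = 0.353) and -1.65 for PNPLA3 (adjusted p = 0.416). The calls were 1 of 3 PPAR regulators, 1 of 10 uptake genes and 1 of 18 oxidation genes. For the coat and assembly genes it was 1 of 6 and for the lipolysis genes 1 of 5, beside 6.43% of all genes.

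Between siRNA2 and siRNA1, 1 of 7 coat and assembly genes, 1 of 6 lipolysis genes and 3 of 14 uptake genes were called. For the oxidation genes it was 3 of 19, for the PPAR regulators 1 of 3 and for the synthesis genes 0 of 11. Of all genes 19.7% were called in this comparison. FABP4 (log2 fold change 4.41, adjusted p = 4.2e-07), FABP6 (2.28), SLC27A2 (1.65), the oxidation genes HADH (1.55), SLC25A20 (1.19) and CPT2 (1.06), and PPARGC1A (2.27) were higher with siRNA2. DDHD2, a lipolysis gene (-1.70), and HSD17B11 (-1.23) were lower. PPARGC1A was at 0.636 and 0.0882 RPKM with siRNA1 and at 2.08 and 1.38 RPKM with siRNA2 (normoxia and hypoxia).

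**Figure D5:**
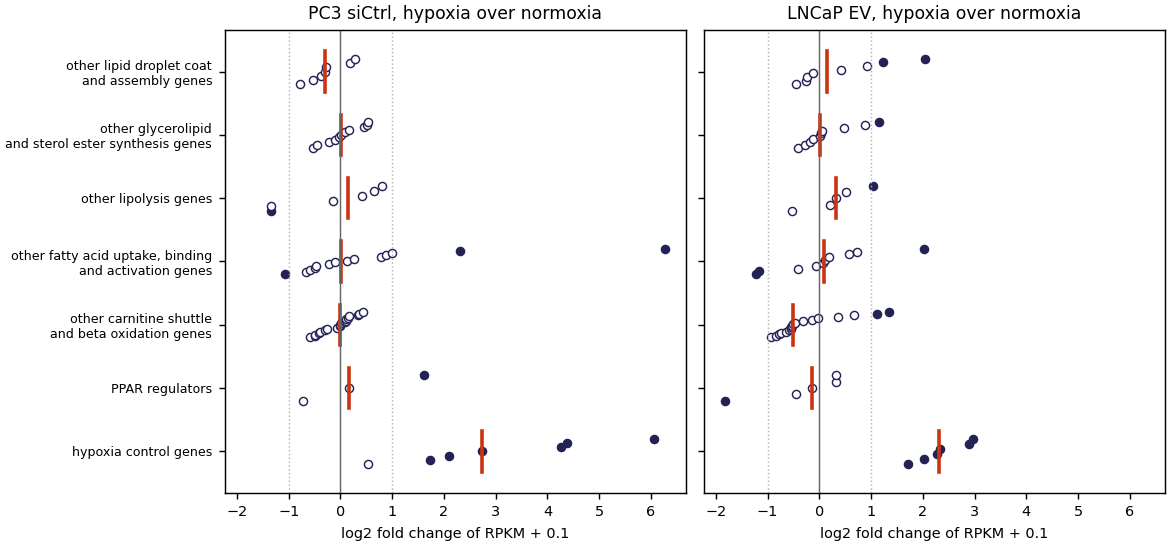
Log2 fold changes of RPKM plus 0.1 with hypoxia in the control cells, 1 point per gene tested, for the 6 pathway lists and the hypoxia control genes. Filled points were called, red lines are medians and dotted lines mark a fold of 2; the beta oxidation list has its median at -0.52 in LNCaP and at -0.01 in PC3.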

How the data were processed

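The authors prepared stranded mRNA libraries (TruSeq), used STAR 2.4.2a for alignment of trimmed reads to hg19, and deposited RPKM per gene from Cufflinks 2.1.1 with a GENCODE GRCh37 annotation. The strand setting was not given in the sources used here. The deposited RPKM hold no read counts, so the depth per library is known only relative to the others. Of the samples, 12 are ChIP-Seq and not analysed here. Groups and replicate numbers came from the labels.

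RPKM were used without further scaling. limma 3.58.1 (R 4.3.3) fitted each cell line on log2(RPKM + 0.1), with 4 groups of 2 and a mean-variance trend. Genes needed 1 RPKM in at least 2 libraries. A fit to genes tested in both tables compared the lines. Fits were checked on simulated data. With 2 libraries against 2, an exact two-sided rank test cannot go below 0.33, so the spread is shared across genes and groups.

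All members were reported. From each pathway list, at most 4 called genes without overlap were named per comparison, by size of change. The members and lists were chosen with earlier results of these data known. Alternatives varied the pseudocount (1), the limit on low values (none, or 5 RPKM) and the call rule (adjusted p), scaled libraries to their 75% quantile, fitted only the groups compared, added a replicate block or left out each library. The siRNA comparison, the siRNA term and the crossed block were added after the data were seen. Promoter letters came from RefSeq on GRCh38.p14, and gene positions from GENCODE on GRCh37. Plots were made with matplotlib.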

Additional observations from a re-analysis of the deposited data

Results flagged for a closer look

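The hypoxia response of HILPDA differed between the control cells of the lines, by 2.34 on the log2 scale in the test of the difference (limma, adjusted p = 0.0365), and both hypoxic libraries lay above both normoxic ones in each line. In LNCaP the hypoxia responses of CPT1A and HILPDA differed between the OC2 and EV arms at an unadjusted limma P under 0.05. The difference was 0.54 for CPT1A (limma adjusted p = 0.157) and 0.45 for HILPDA (limma adjusted p = 0.215). Neither passed after adjustment or the fold limit. Groups of 2 libraries were too small to look for single outlying libraries.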

How the results depend on the processing

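The call of HILPDA with hypoxia was kept under every alternative in siCtrl PC3 (log2 fold change 3.30 to 3.76), EV LNCaP (1.11 to 1.27) and OC2 LNCaP (1.55 to 1.74), and so was its difference between the lines (2.11 to 2.57), with adjusted p up to 0.317, 0.00518, 0.0032 and 0.165. Calls by adjusted p gave 0 members instead of 1 with hypoxia in siOC2 PC3, 3 instead of 1 in EV LNCaP, 2 instead of 1 in OC2 LNCaP, and 1 instead of 0 for ONECUT2 over EV in hypoxic LNCaP. Upper-quartile scaling gave 2 instead of 1 in EV LNCaP. Leaving out 1 library gave 1 to 3 members with hypoxia in siOC2 PC3, 0 to 2 for siCtrl over siOC2 in hypoxia, 0 to 2 for the interaction in PC3, 1 to 6 between the siRNAs and 1 to 2 in EV LNCaP. No called effect of a member changed sign. Leaving out a siOC2 library left 1 siRNA in its group, so the difference between the siRNAs enters those effects. Of 1243 uncalled effects, counted once per alternative, 74 changed sign. Upper-quartile scaling moved the median of all genes from -0.22 to -0.09 with hypoxia in siOC2 PC3 and from 0.17 to 0.01 for the interaction in PC3.

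Replicate numbers were not used as pairs in the main fit, and the labels do not state a pairing. Deviations from group means correlated at -0.19 between normoxic and hypoxic siCtrl PC3, at 0.62 between the siOC2 groups, where the number is the siRNA, and at 0.27 between the hypoxic LNCaP groups. With the replicate block, 562 genes instead of 471 were called with hypoxia in siCtrl PC3, and HILPDA remained the 1 member called. The crossed replicate block exchanged the replicate numbers of the normoxic siCtrl PC3 libraries. It called 514 genes with hypoxia in siCtrl PC3, and 1 member (HILPDA) instead of 0 in the interaction in PC3. The siRNA term also gave 1 member instead of 0 in that interaction, and more genes in 4 of 4 comparisons: 380 instead of 115 in the interaction, 841 instead of 422 with hypoxia in siOC2 PC3, and 1013 instead of 636 and 1384 instead of 916 for siCtrl over siOC2 in normoxia and hypoxia. Over all genes, the number called moved by over 1.5 times in 7 of 12 comparisons with a pseudocount of 1, in 11 with a limit of 5 RPKM (both fewer), in 4 with no limit (more), in 11 by adjusted p and in 2 of 8 with a fit to only the groups compared. With hypoxia, the pseudocount of 1 gave 238 genes instead of 422 in siOC2 PC3, 594 instead of 976 in EV LNCaP and 483 instead of 840 in OC2 LNCaP. A fit to only the groups compared gave 778 instead of 471 in siCtrl PC3 and 181 instead of 422 in siOC2 PC3.

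The relative depth ranged from 0.347 to 1.15 in the PC3 libraries and from 0.548 to 1 in the LNCaP libraries, and its part in the calls was not tested.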
